A study of Mus musculus with 2 samples.

Results

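YY1 occupancy was examined at the genes of 7 families that encode core spliceosome proteins and splicing regulators. The families were taken by gene symbol from the protein-coding genes of the GENCODE M21 basic annotation, as the names that begin with Srsf and a digit, Hnrnp, Snrp, Sf3a or Sf3b, Prpf, U2af and Tra2. This gave 70 of the 21938 protein-coding genes outside the mitochondrial genome. A gene was counted as bound when the summit of a YY1 peak, the position of its highest pileup, lay within 1000 bp of the start of any of its transcripts.

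The peaks come from 1 YY1 ChIP-seq library of muscle stem cells (MuSCs), called against 1 background library. ChIP-seq recovers the DNA that a protein occupies with an antibody, here sc-1703 against YY1, and counts the DNA fragments along the genome. According to the study's methods, the cells were taken without culture from mdx mice, a dystrophin-deficient model of muscular dystrophy, whereas the labels describe cultured cells and series text calls them wild type. The mice were the Ctrl group, with the alleles Pax7CreERT2/R26YFP, Yy1+/+ and mdx. In them a tamoxifen-inducible Cre recombinase driven by Pax7 marks MuSCs with YFP, and Yy1 is intact. The paper gave tamoxifen to its Ctrl and dKO (Yy1-deleted) mice, but does not state it separately for the ChIP-seq mice. Cells of several mice were mixed into the single library. The age of these mice is not given in the sources used here. The background library is named input in the labels and IgG in the methods. No dKO cells were profiled by ChIP-seq, so the list holds no comparison of conditions. A list of occupied sites does not measure RNA, and the cell type could not be checked from it. With 1 library there is no spread between mice, and every interval below is a 95% exact binomial (Clopper-Pearson) interval that covers counting error only.

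Pre-mRNA is spliced by the spliceosome, which is built from small nuclear ribonucleoproteins (snRNPs). Each snRNP joins a small nuclear RNA to a ring of Sm proteins, or of Sm-like proteins in the U6 snRNP, and to proteins of its own, and SF3A, SF3B, U2AF and the PRPF proteins help to recognise the branch point and 3′ splice site or to assemble the later complexes. SR proteins and Tra2 proteins usually promote the use of nearby splice sites, and hnRNP proteins bind nascent RNA and often repress nearby splice sites. YY1 is a zinc-finger factor that recognises ATGGC-containing DNA and occupies many promoters of broadly expressed genes. In MuSCs it is known for a role in their activation and in muscle regeneration.

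The list holds 4681 peaks with a median width of 354 bp and a median of 14 fragments at the summit. Fold enrichment is the ratio of the fragments at the summit to the local background, each with 1 added. It ran from 1.49 to 14.4 with a median of 5.10. The depth that corresponds to the most frequent local background, 1.54 fragments, is 13357713 fragments.

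The YY1 motif AANATGGC, in which N is any base, was looked for, on both strands, with all of its bases up to 100 bp from the strongest promoter summit of each bound gene. It was found at 5 of the 42 bound genes, and at 2 places of one of them. These sequences are printed because they tie a peak to the letters of the motif. Capitals mark the motif, and each line reads 5′ to 3′ on the strand given, in GRCm38.
Sf3b2, chr19:5295379-5295408, minus strand: ttcttgtggctAAGATGGCggcggagcatc
Srsf1, chr11:88047688-88047717, minus strand: gcggccgctccAAAATGGCgcctttatcag
Srsf5, chr12:80946088-80946117, minus strand: gttcgcagcacAAAATGGCgacggccgaag
Srsf6, chr2:162931862-162931891, plus strand: gcagggcctctAAAATGGCggcggcggcgg
Tra2b, chr16:22265401-22265430, plus strand: cccgcgagcccAAGATGGCtgcggcgcggc
Tra2b, chr16:22265484-22265513, minus strand: gggggaggctaAAGATGGCcgcggcgtccg

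In Tra2b the first base of one motif lay 1 bp from the summit and that of the other 89 bp from it, outside annotated exons. In Srsf6 the motif lay 4 bp from the summit and in Srsf5 15 bp from it, also outside annotated exons. The Srsf1 motif lay 61 bp from the summit in exon 1 of a transcript that starts farther upstream. The ATG of the Sf3b2 motif is the annotated start codon of Sf3b2, and this motif lay 54 bp from the summit.

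YY1 occupied the promoters of most of these genes. Of the 70 genes 42 were bound, which is 60% (47.6% to 71.5%), against 4119 of all 21938 protein-coding genes, or 18.8% (18.3% to 19.3%). With peaks of 5-fold enrichment or more alone, 24 of the 70 (34.3%) were bound, against 11.1% of all protein-coding genes. Most of the 70 genes start in CpG-rich DNA, as housekeeping genes commonly do. By a limit of 55% G and C and an observed-to-expected CpG ratio of 0.65 within 250 bp of a start site, 59 of the 70 (84.3%) had a CpG-rich start site, against 48.0% of all protein-coding genes. Among genes with such a start site, 39 of the 59 (66.1%, 52.6% to 77.9%) were bound, against 36% (35.1% to 36.9%) of all protein-coding genes with one. Of the 11 genes without one, Snrpa1, Prpf31 and Prpf4b were bound, where the share of all such genes was 2.91%.

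Genes with more annotated start sites have more windows in which a summit can fall. Of the 29 genes with 1 start site 15 were bound (51.7%), against 15.8% of all protein-coding genes with 1. With 2 or 3 start sites, 18 of 29 were bound (62.1%, against 20.0%), and with 4 or more, 9 of 12 (75%, against 29.7%). The share was above that of all protein-coding genes with the same range of start sites in each of the 3 classes. Transcription in these cells was not measured in the files, and its part in these shares was not tested.

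**Figure D1:**
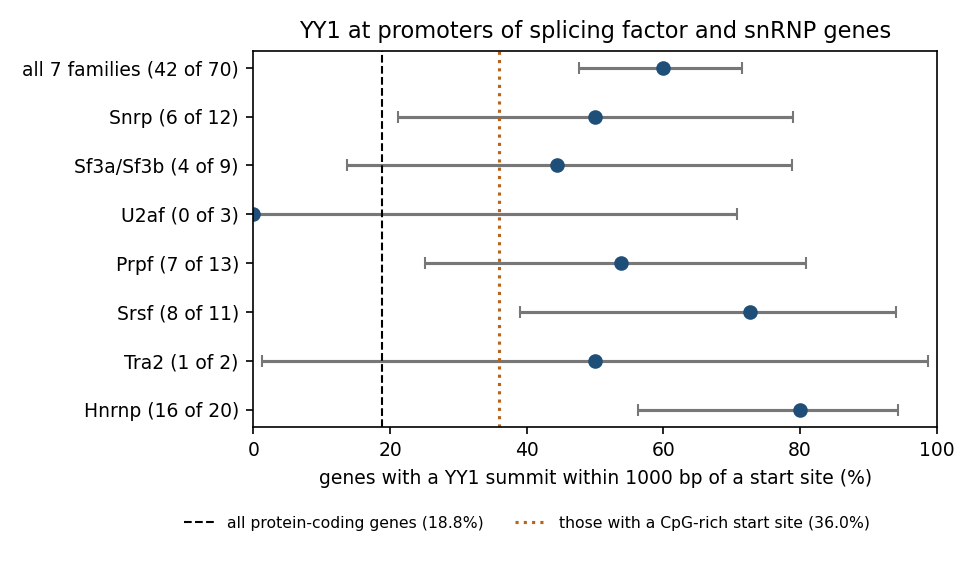
Share of genes with a YY1 summit within 1000 bp of a start site, in percent, for the 7 families together and each family. Points are shares, bars are 95% exact binomial intervals, and the lines mark the 18.8% of all protein-coding genes and the 36% of those with a CpG-rich start site. The Hnrnp share is the highest at 80%, and none of the 3 U2af genes was bound.

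The families differed in their shares, from 0 of 3 U2af genes to 16 of 20 Hnrnp genes, but most of the intervals overlap widely. Hnrnp genes were bound in 80% of cases (56.3% to 94.3%) and Srsf genes in 72.7% (8 of 11, 39.0% to 94.0%). Of the Prpf genes 7 of 13 were bound (53.8%, 25.1% to 80.8%), of the Snrp genes 6 of 12 (50%, 21.1% to 78.9%), and of the Sf3a and Sf3b genes 4 of 9 (44.4%, 13.7% to 78.8%). One of the 2 Tra2 genes was bound.

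The peaks were of about the same strength as those at other bound genes. The median fold enrichment of the strongest promoter peak was 5.21 over the 42 bound genes (lowest 3.03, highest 9.46), against 5.13 over all 4119 bound protein-coding genes. The fragments at the summit ran from 10 to 23 with a median of 15.5. Of the 42 genes 21 lay above the median of all bound genes, 12 above their upper quartile of 6.12, and 9 below their lower quartile of 4.37. The q-value was under 0.01 at 41 of the 42 (97.6%, against 92.8% of all bound protein-coding genes), and Srsf6 was the exception.

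**Figure D2:**
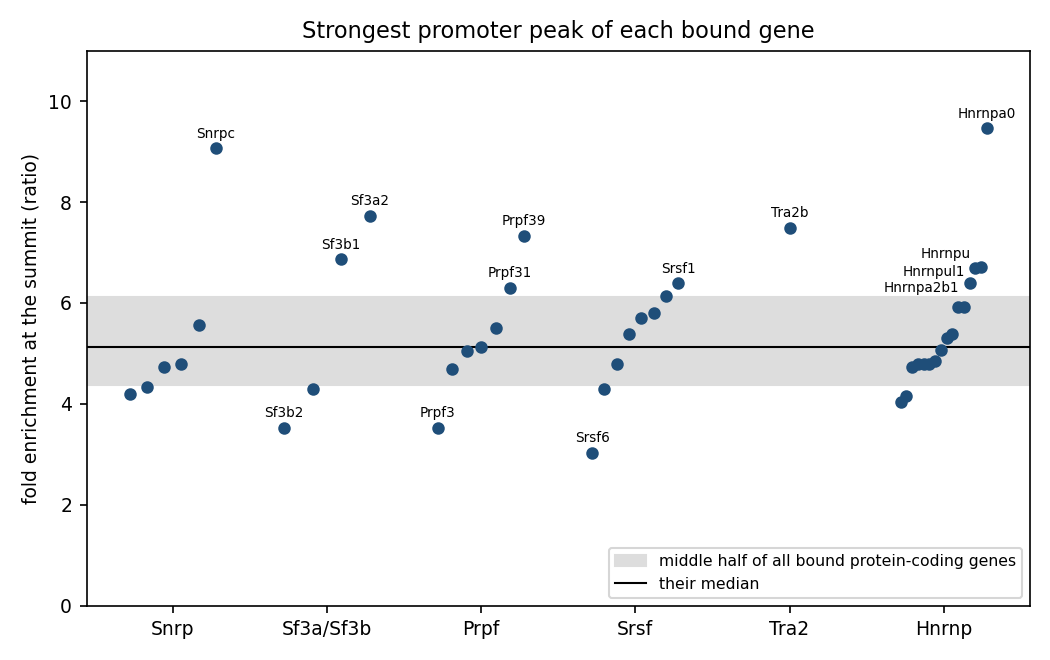
Fold enrichment at the summit of the strongest promoter peak of each of the 42 bound genes, by family. Each point is 1 gene, the band spans the quartiles of all bound protein-coding genes (4.37 to 6.12) and the line is their median of 5.13. Hnrnpa0 (9.46) and Snrpc (9.07) stand highest, and Srsf6 (3.03) lowest.

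Among the snRNP proteins, the strongest peak was that of Snrpc, which encodes a protein of the U1 snRNP, which first recognises the 5′ splice site. It lay on chr17:27839905-27840185 with 22 fragments over a local background of 1.54, a fold enrichment of 9.07 and q = 1.87e-14. The summit was 13 bp past one of the 4 annotated start sites, and with only 1 start site counted per gene Snrpc was not bound. In fold enrichment, 97.6% of all bound protein-coding genes had a lower value. The other bound genes of the family had 10 to 15 fragments and a fold enrichment under 6. Snrpe encodes an Sm core protein, and its peak (chr1:133609821-133610352) had 14 fragments over 1.70, a fold enrichment of 5.56 and a summit 5 bp downstream of a start site. Snrpd1, also an Sm core gene, had 15 fragments over 2.34, a fold enrichment of 4.80 and a summit 88 bp downstream of a start site on chromosome 18. Snrpd3, the third Sm gene with a peak, had a fold enrichment of 4.73. Its summit lay 485 bp upstream of its own start site and 232 bp downstream of a start site of Gucd1, which is transcribed the other way. Snrpb2 and Snrpa1, which encode proteins specific to the U2 snRNP, had 4.34 and 4.20, with summits 157 and 529 bp downstream.

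Not every gene of the Sm ring had a peak. Snrpe, Snrpd1 and Snrpd3 had a promoter peak, while Snrpb, Snrpd2, Snrpf and Snrpg had none. Snrpn, which encodes an Sm protein of the brain, and Snrpa, which encodes a protein of the U1 snRNP, were not bound either. The summit nearest to a start site of Snrpf lay 4545 bp upstream (chr10:93594194-93594423), with 11 fragments over 1.54, a fold enrichment of 4.73 and q = 0.00043. That of Snrpg lay 5609 bp away, and those of the other 4 genes between 16.9 and 271 kb.

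SF3A and SF3B are parts of the U2 snRNP that hold the branch point. Sf3a2 had the strongest peak of the family, on chr10:80798147-80798940, with 22 fragments over 1.98, a fold enrichment of 7.73 and q = 2.75e-12. Its summit lay 43 bp upstream of a start site of Sf3a2 and 63 bp upstream of that of Plekhj1, on the opposite strand. Sf3b1, which encodes the largest SF3B subunit, had 19 fragments over 1.91 and a fold enrichment of 6.87 at chr1:55027169-55027578, 23 bp upstream of its start site. The peaks of Sf3a3 and Sf3b2 were weaker. Sf3a3 (chr4:124714576-124714900) had 16 fragments over 2.96 and a fold enrichment of 4.29, with its summit 84 bp upstream. Sf3b2 (chr19:5295259-5295561) had 13 over 2.96 and 3.53, with its summit 4 bp downstream of a start site, and 5.85% of all bound protein-coding genes had a lower value.

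Sf3a1, Sf3b3, Sf3b4, Sf3b5 and Sf3b6 were not bound. For Sf3b5 this rests on the annotation. GENCODE places its start site at 13005343 on chromosome 10, and the nearest summit lay 3207 bp downstream in exon 1 (chr10:13008371-13008641, 15 fragments over 2.34, fold enrichment 4.80). Curated RefSeq transcripts place the start at 13008450, which is 100 bp from this summit, and with that annotation Sf3b5 was bound. The nearest summits of the other 4 genes lay 47.6 to 98.5 kb away.

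None of the U2af genes, whose proteins recognise the 3′ splice site, was bound. U2af2 missed the limit by 1 bp. Its nearest summit lay 1001 bp upstream of a start site, in a peak on chr7:5061064-5061456 with 15 fragments over 1.91, a fold enrichment of 5.50 and q = 2.89e-06, and 907 bp from a start site of the gene Gm45133. A limit of 2000 bp, or any overlap of the peak with the window, counted U2af2 as bound. The nearest summits of U2af1 and U2af1l4 lay 139 and 25.6 kb away.

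The Prpf genes encode proteins of several steps of the splicing cycle. Prpf39, whose protein associates with the U1 snRNP, had the strongest peak (chr12:65036255-65036738), with 18 fragments over 1.59, a fold enrichment of 7.33, q = 5e-10 and a summit 129 bp downstream. Prpf31, a tri-snRNP assembly protein, had 16 fragments over 1.70 and a fold enrichment of 6.30 (chr7:3629680-3629912). Its summit lay 155 bp upstream of its own start site and 54 bp downstream of a Tfpt start site, on the opposite strand. Prpf4, whose protein belongs to the U4/U6 snRNP, had 15 fragments over 1.91 and a fold enrichment of 5.50 (chr4:62408550-62408903). Here the summit lay 87 bp upstream of Prpf4 and 68 bp upstream of Cdc26, a subunit gene of the anaphase-promoting complex. Prpf4b, which encodes a kinase, had 5.12, and Prpf40b had 5.04. Prpf3, the partner of Prpf4 in the U4/U6 snRNP, had 3.53. Prpf8 and Prpf6, which encode U5 and tri-snRNP proteins, Prpf19, which gives the Prp19 complex its name, and Prpf18, Prpf38a and Prpf38b were not bound, with the nearest summits 18.8 to 290 kb away.

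Of the SR protein genes, Srsf1, Srsf2, Srsf4, Srsf5, Srsf6, Srsf7, Srsf9 and Srsf10 were bound. Srsf1 (chr11:88047578-88047792) had 18 fragments over 1.98, a fold enrichment of 6.39, q = 1.41e-08 and a summit 73 bp upstream of a start site. Srsf2 (chr11:116852985-116853453) had 20 over 2.42, a fold enrichment of 6.14 and a summit 199 bp upstream, at a peak shared with Mfsd11 on the opposite strand. Srsf9 (chr5:115326986-115327375) had 22 over 2.96, a fold enrichment of 5.80 and a summit 10 bp upstream. These were the strongest of the family, and none reached the value of 7.22 that marks the 90th percentile of all bound protein-coding genes. Srsf5 (chr12:80945737-80946233) had 18 over 2.34, a fold enrichment of 5.70 and a summit 506 bp downstream. Among the strongest promoter peaks of the 42 genes, that of Srsf6 (chr2:162931553-162931953) was the weakest. It had 11 fragments over 2.96, a fold enrichment of 3.03 and q = 0.0743, and its summit is the one 4 bp from a motif. Srsf3, Srsf11 and Srsf12 were not bound, with the nearest summits 24.6, 84.5 and 19.4 kb away. Of the closely related pair Srsf3 and Srsf7, Srsf7 was thus bound (fold enrichment 4.79) and Srsf3 was not.

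The Tra2 genes encode relatives of the SR proteins. Tra2b had a peak on chr16:22265300-22265651 with 18 fragments over 1.54, a fold enrichment of 7.49 and q = 2.93e-10, and the summit was in an intron, 504 bp downstream of the nearest start. The nearest summit to Tra2a lay 27.5 kb away.

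The hnRNP family held the strongest peak of all 42 genes. Hnrnpa0, a gene of the A/B group whose proteins carry paired RNA recognition motifs, had 23 fragments over 1.54, a fold enrichment of 9.46 and q = 1.4e-15 on chr13:58128030-58129159. Its summit was 173 bp upstream, and 98.3% of all bound protein-coding genes had a lower value. Hnrnpu, whose protein also binds chromatin-associated RNA, had 18 over 1.83 and 6.72 (chr1:178337728-178337982), with the summit 64 bp upstream. Hnrnpul1, related to Hnrnpu, had 16 over 1.54 and 6.70 (chr7:25754439-25755351), with the summit 189 bp upstream. The other 13 bound genes had a fold enrichment between 4.03 (Hnrnpd) and 6.39 (Hnrnpa2b1), and they were Hnrnpa2b1, Hnrnpa3, Hnrnpc, Hnrnpd, Hnrnpdl, Hnrnpf, Hnrnph1, Hnrnph3, Hnrnpk, Hnrnpl, Hnrnpll, Hnrnpr and Hnrnpul2. Hnrnpa1, Hnrnpab, Hnrnpm and the X-linked Hnrnph2 were not bound, with the nearest summits 65.0, 29.0, 56.1 and 542 kb away. Within the A/B group, Hnrnpa0, Hnrnpa2b1 and Hnrnpa3 were thus bound and Hnrnpa1 and Hnrnpab were not.

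Some of these promoters held a pair of peaks. Of the 42 bound genes 7 had 2 promoter peaks, which is 16.7% (6.97% to 31.4%), against 5.10% of all bound protein-coding genes with 2 or more. They were Srsf2 and the hnRNP genes Hnrnpa3, Hnrnpdl, Hnrnpf, Hnrnpk, Hnrnpl and Hnrnpu. These genes had from 1 start site (Hnrnpdl and Hnrnpu) to 8 (Hnrnpk), and the share was not compared by number of start sites. In 3 of them, the peaks were of like height. At Hnrnpa3 the summits lay 126 bp upstream of one start site and 475 bp downstream of another. They had 20 fragments each and a fold enrichment of 5.29 (chr2:75659029-75659337) and 5.30 (chr2:75659601-75660049). At Hnrnpl they lay 45 bp upstream of one start site and 550 bp downstream of one, with 15 fragments and 4.80 (chr7:28810755-28810972) and 18 fragments and 4.78 (chr7:28811121-28811555). At Hnrnpu they lay 64 bp upstream and 427 bp downstream, with 18 fragments and 6.72, and 17 fragments and 6.05 (chr1:178337241-178337497). In the other 4 genes the peaks were unequal. Srsf2 had 6.14 at 199 bp upstream and, on chr11:116852531-116852775, 17 fragments over 4.94 and 3.03 at 367 bp downstream. Hnrnpk, which encodes a poly(C)-binding protein, had 23 fragments over 3.95 and a fold enrichment of 4.85 at 61 bp upstream (chr13:58402473-58403122), and 16 over 3.95 and 3.43 at 261 bp downstream (chr13:58401662-58401930). Both peaks of Hnrnpf, whose protein binds G-rich RNA, lay downstream. They had 12 fragments over 1.57 and 5.06 at 119 bp (chr6:117906762-117907265), and 11 over 1.98 and 4.03 at 974 bp (chr6:117907648-117907862). Both summits of Hnrnpdl lay upstream of its start site, the stronger one within the gene as annotated. They had 17 fragments over 2.76 and 4.79 at 221 bp (chr5:100038819-100039516), and 16 over 4.94 and 2.86 at 614 bp (chr5:100039827-100040041). The local background was highest, 4.94 fragments, at the weaker peaks of Srsf2 and Hnrnpdl.

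**Figure D3:**
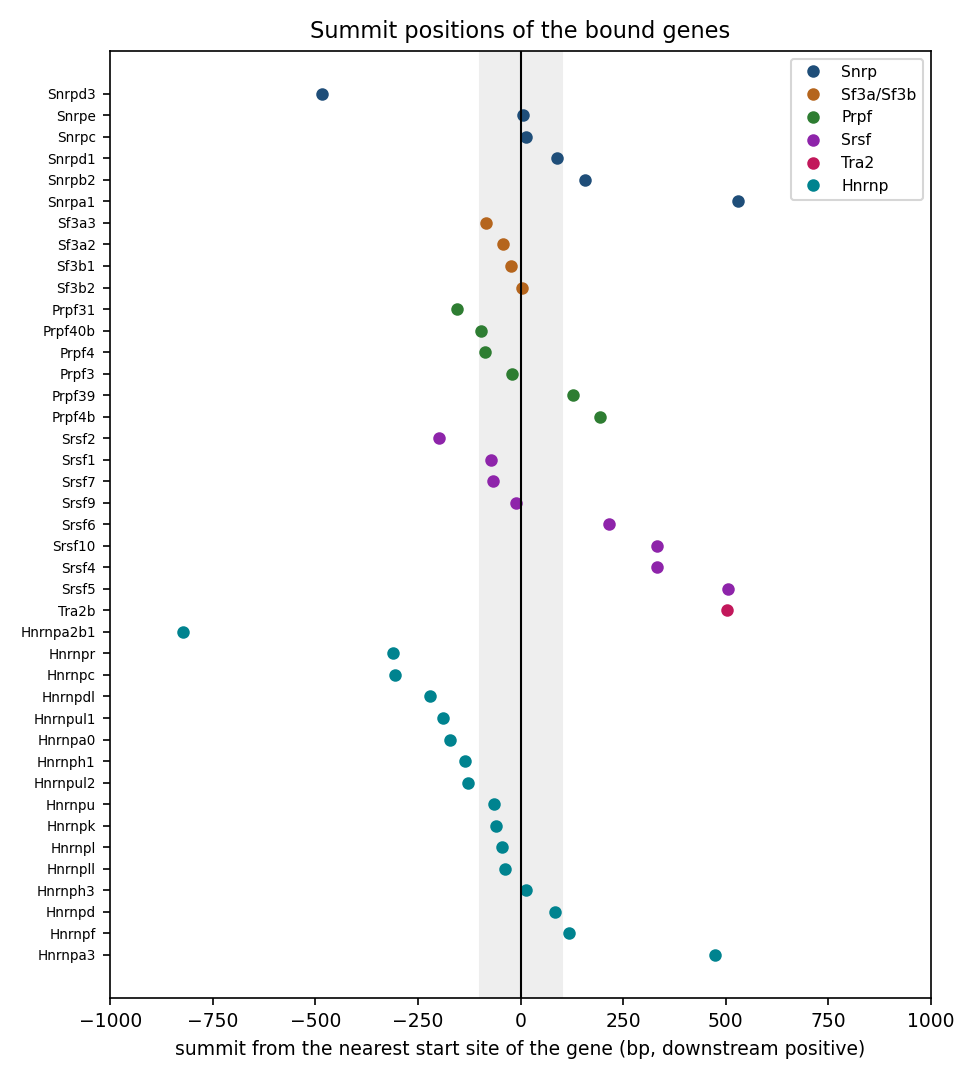
Position of the strongest promoter summit of 41 of the 42 bound genes relative to the nearest start site of the gene, in bp, with downstream positive. Each point is 1 gene, coloured by family, and the grey band marks 100 bp either side. Of these summits 19 lie in the band, and all 4 of the Sf3a and Sf3b genes are among them.

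The summits lay close to the start sites, at a median distance of 129 bp, against 107 bp for all bound protein-coding genes. Within 100 bp of a start site lay 19 of the 42 (45.2%, against 47.9%). Upstream of the nearest start site lay 25 (59.5%, against 50.8% of all bound protein-coding genes). Of these 25, the summits at Srsf1, Hnrnpdl, Hnrnph1, Hnrnpk, Hnrnpl, Sf3a2 and Prpf40b lay within the gene as annotated. By family, 12 of 16 Hnrnp, 5 of 7 Prpf, 3 of 4 Sf3a and Sf3b, 4 of 8 Srsf and 1 of 6 Snrp summits were upstream, and that of Tra2b was downstream. These numbers are small, and a difference between families was not tested. Hnrnpa2b1 had the most distant summit, 822 bp upstream, and its peak was also the widest of the 42 at 1819 bp. This peak covers the start sites of Hnrnpa2b1 and of Cbx3, which encodes a heterochromatin protein and starts on the opposite strand, and the summit is 21 bp downstream of the Cbx3 start site. The median width of the 42 peaks was 459 bp, against 368 bp for all bound protein-coding genes.

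Some of the peaks are shared with a neighbouring gene. At 13 of the 42 genes (31.0%, 17.6% to 47.1%) the summit lay within 1000 bp of a start site of another protein-coding gene, against 25.7% of all bound protein-coding genes, and each of these partners is on the opposite strand. They include Cbx3 at Hnrnpa2b1, 4930524J08Rik at Hnrnpd, Enoph1 at Hnrnpdl, Pbld2 at Hnrnph3, Rmi1 at Hnrnpk, Ttc9c at Hnrnpul2, Tfpt at Prpf31, Cdc26 at Prpf4, Plekhj1 at Sf3a2, Gucd1 at Snrpd3, Mfsd11 at Srsf2 and Ttc39d at Srsf7. With genes of any type, 22 of the 42 shared their summit (52.4%, against 39.7%). In 6 cases (14.3%, against 17.1%) the summit was nearer to a start site of another gene, among them those at Hnrnpa2b1, Prpf31, Prpf4, Prpf4b and Snrpd3. A peak at such a promoter cannot be assigned to 1 of its genes from these data.

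For the 28 genes without a promoter peak, the median distance to the nearest summit was 51.9 kb, against 150 kb for all 17819 protein-coding genes that were not bound. For 14 of the 28 (50%, against 75.7%) it was over 50 kb. Within 5000 bp of a start site lay the summits named above for U2af2, Sf3b5 and Snrpf (10.7%, against 2%).

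AANATGGC lay wholly within 100 bp of the summit at 5 of the 42 genes (11.9%, 3.98% to 25.6%), at 285 of all 3777 promoter peaks of protein-coding genes (7.55%), and in 1 of 84 windows of the same length 2000 bp to each side of the 42 summits. The peaks of the 42 genes were wider (median 459 bp, against 368 bp for all bound protein-coding genes), so more sequence was searched there. Anywhere in the strongest promoter peak AANATGGC was present at 14 of the 42 genes (33.3%, 19.6% to 49.5%), against 15.8% of all bound protein-coding genes. Its core ATGGC, which is part of every match to the longer form, was within 100 bp of 31.0% of the 42 summits (17.6% to 47.1%), 30.6% of all promoter peaks and 22.6% of the 84 windows to each side (14.2% to 33.0%). Of other factors' motifs searched on both strands, TCGCGAGA (ZBTB33) was at 4 summits (9.52%, 2.66% to 22.6%, against 1.96% of promoter peaks). These were the summits of Hnrnph3, Hnrnpk, Srsf5 and Srsf10. CCGGAAG (ETS) was at 8 (19.0%, against 13.7%), GGGCGG (SP1) at 24 (57.1%, against 65.6%), and CGCATGCG (NRF1) at 2 (4.76%, against 3.94%). None of these 4 motifs contains another.

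The motif is frequent at the start sites of these genes whether or not a peak is there. Within 250 bp of a start site 22 of the 70 genes had AANATGGC, which is 31.4% (20.9% to 43.6%), against 13.4% of all protein-coding genes, each searched at every start site it has. Among genes with a CpG-rich start site the shares were 32.2% (19 of 59) and 16.3%. Of the 22 genes 12 were bound (54.5%, 32.2% to 75.6%), and of the 48 without the motif 30 were bound (62.5%, 47.4% to 76.0%). For all protein-coding genes, 27.7% with the motif and 17.4% without it were bound. Among the 70 genes the share bound was thus no higher with these letters near the start site than without them, and the intervals of both shares overlap.

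In 7 of the 22 genes, the ATG of the motif is the annotated start codon, which is 10% of the 70 genes (4.12% to 19.5%), against 3.18% of all protein-coding genes. Of these 7, Sf3b1 and Sf3b2 were bound (28.6%, against 30.1% of all protein-coding genes of this kind). The Sf3b2 sequence is given above, and the other 6 are shown here because the same letters are read both as DNA motif and as the first codons. The coordinates are those of GRCm38 and capitals mark the motif.
Sf3b1, bound, chr1:55027351-55027380, minus strand: ttcgagtggacAAAATGGCgaagatcgcca
Hnrnpm, not bound, chr17:33685364-33685393, minus strand: cagacgcggagAAAATGGCggcaggggtcg
Prpf38a, not bound, chr4:108579099-108579128, minus strand: gaaagagttctAAAATGGCgaaccgtacag
Sf3b6, not bound, chr12:4817776-4817805, plus strand: atcagcccgccAAGATGGCgatgcaagcgg
U2af1, not bound, chr17:31658681-31658710, minus strand: tcgtccgctcgAAAATGGCggaatacttgg
U2af1l4, not bound, chr7:30563342-30563371, plus strand: gtgttcgggtaAAAATGGCtgaatatttag

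Some motifs lie close to the transcription start. In 7 genes the first base of the motif lay within 10 bp of a start site, again 10% of the 70, against 1.93% of all protein-coding genes. Hnrnpm and U2af1l4, shown above, are among them on the gene's strand. The other 5 have the motif on the strand opposite to the gene, and 3 of these were bound. Of the 7 genes 3 were thus bound (42.9%, 9.90% to 81.6%), near the 38.0% of all protein-coding genes with the motif at this place. The 5 are shown because the motif lies next to or across a start site, with capitals and coordinates as before.
Hnrnpc, bound, chr14:52103989-52104018, plus strand: cgtctcctcacAAAATGGCccccgagctcc
Hnrnpd, bound, chr5:99978921-99978950, plus strand: gcggaccacctAAAATGGCcgacggaagaa
Hnrnpul1, bound, chr7:25754750-25754779, plus strand: ggcggcggctcAAGATGGCcgccgccgcct
Prpf38b, not bound, chr3:108911712-108911741, plus strand: cccctgggaacAAGATGGCggggccagcgg
Tra2a, not bound, chr6:49264015-49264044, plus strand: cacgttcaggcAAAATGGCgcccgtgccgc

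In the bound genes the summit was not always at these sites. The first base of the motif lay 98 bp from the summit at Hnrnpd, where the rest of the motif reaches beyond 100 bp, 185 bp at Hnrnpul1, 335 bp at Hnrnpc and 135 bp at Sf3b1. A match in this window is a description of the sequence and does not show which base YY1 contacts.

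**Figure D4:**
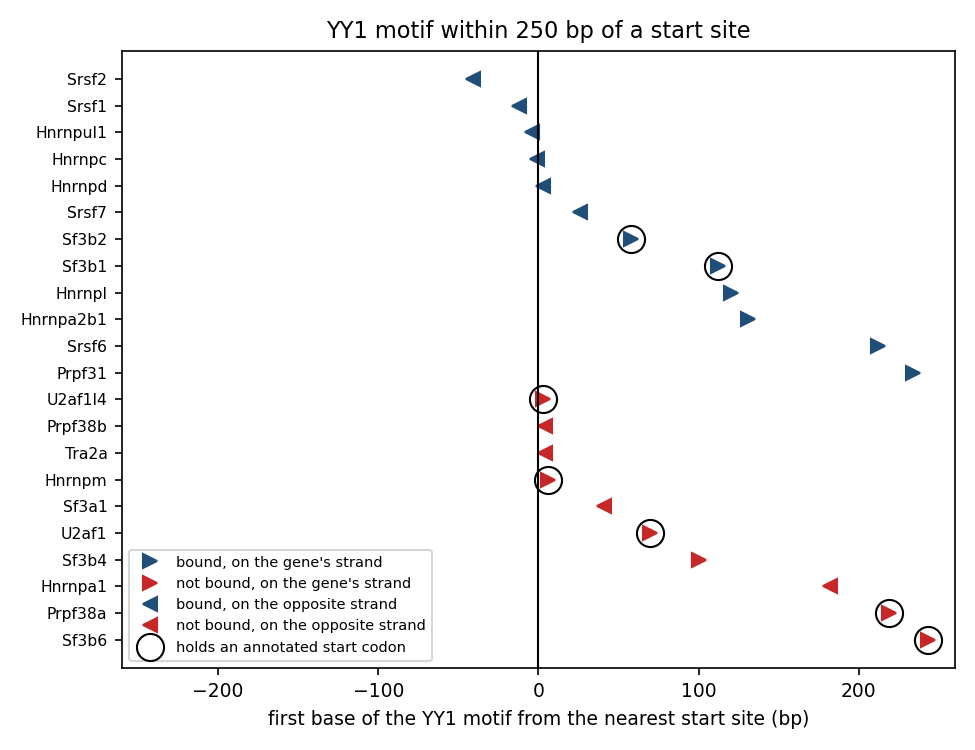
Position of AANATGGC within 250 bp of a start site in the 22 genes that have it, in bp from the nearest start site to the motif's own first base. Blue marks the 12 bound genes and red the 10 that were not, arrowheads to the right are motifs on the gene's strand and to the left on the opposite strand, and circles mark the 7 that hold a start codon. Bound and unbound genes both have motifs within 10 bp of the start site.

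Other genes of the splicing machinery were compared in 10 lists of 125 genes outside the 7 families. Of the 125 genes 67 were bound (53.6%, 44.5% to 62.6%), against 18.8% of all protein-coding genes. Their median fold enrichment was 5.38, against 5.13 over all bound protein-coding genes. A CpG-rich start site was present in 109 of the 125 (87.2%). Of these 59.6% were bound, against 36% of all protein-coding genes with such a start site. The strongest peaks were those of Prmt5 (fold enrichment 9.26), the methyltransferase gene that prepares Sm proteins for snRNP assembly, and Raly (8.28), an hnRNP C relative that lacks the family name. By list, U2 and branch point factors were bound in 9 of 12 cases, with Phf5a, an SF3B subunit gene, highest at 6.35. U5 and tri-snRNP factors were bound in 6 of 8, with Sart3, a U4/U6 recycling factor gene, highest at 7.73, and the Sm-like proteins of the U6 snRNP in 5 of 7, with Lsm4 at 6.72. Alternative splicing regulators were bound in 17 of 27, spliceosomal helicases in 5 of 9 with Ddx23 at 7.71, genes of snRNP assembly and transport in 8 of 16, and SR kinases, importer and SR-related proteins in 7 of 15 with Clk3, a kinase of SR proteins, at 7.39. The lowest shares were those of the Prp19 complex and related factors of the splicing steps (6 of 18, Cdc5l highest at 6.05), the minor spliceosome (2 of 6, Zcrb1 highest at 6.40) and the Snrnp-named proteins (2 of 7, Snrnp27 and Snrnp40 both at 5.38). These lists are small and their intervals overlap.

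**Figure D5:**
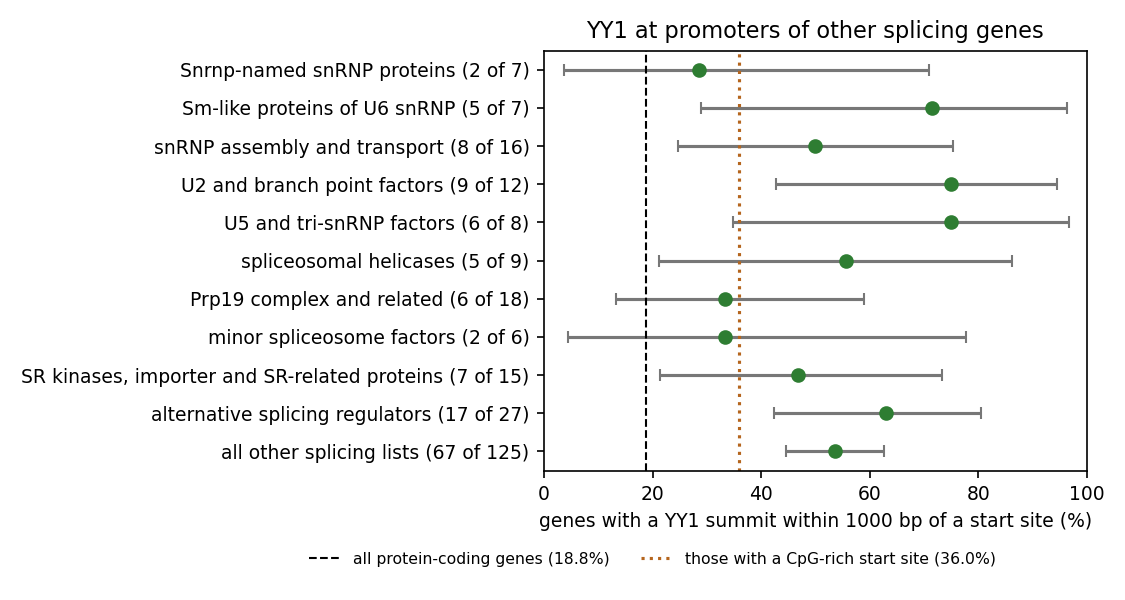
Share of genes with a YY1 summit within 1000 bp of a start site, in percent, for the 10 other splicing lists and all 125 genes together. Points are shares, bars are 95% exact binomial intervals, and the lines mark the 18.8% of all protein-coding genes and the 36% of those with a CpG-rich start site. Shares run from 28.6% for the Snrnp-named proteins to 75% for the U2 and branch point and the U5 and tri-snRNP factors.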

How the data were processed

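After trimming and quality filtering, the authors used bowtie2 to map reads to mm10 (the sequence of GRCm38), removed redundant reads and ran MACS2, keeping sites with a p-value up to 0.0001. The versions are not given in the sources used here. For each peak the deposited list gives a position, a summit, an integer score (not used), the fold enrichment, a ratio over the local background, and −log10 of the p-value and of the q-value, which compare 2 libraries and not mice. A deeper library would pass weaker sites. Fragments at each summit were recovered from these values (100% of peaks). Start sites came from GENCODE M21 basic transcripts, sequences from RefSeq GRCm38. Motif windows reached 100 bp from summits and 250 bp from start sites. No test between groups was possible with 1 library, and shares have Clopper-Pearson intervals.

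Of the 70 genes 1 is counted but not reported here by name. Full values are given for the 3 bound genes of each family with the highest fold enrichment, genes with AANATGGC at the summit or 2 promoter peaks, and unbound genes with a summit within 5000 bp, and of each other list the top gene is named with its fold enrichment. Protein-coding genes sharing a peak with a named gene are named too. Other values were chosen after they were seen. The genes and lists were chosen with earlier results of these data known. All 125 list symbols matched. The placement, motif search and fragment recovery were tested on simulated data. The tools were samtools 1.23.1, Python 3.11.15, scipy 1.17.1, pandas 2.3.3, numpy 2.4.6, matplotlib 3.10.9 and pysam 0.24.0. Alternatives were other promoter windows, peak limits, annotations and motif forms.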

Additional observations from a re-analysis of the deposited data

How the results depend on the processing

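The number of bound genes stayed between 32 and 43 of 70 under the other promoter windows, annotations and rules for assigning a peak (43 of 71 with curated RefSeq transcripts, which add Hnrnpa1l2-ps2), and the median fold enrichment between 5.08 and 5.34. The lowest number came from a window of 1000 bp upstream to 100 bp downstream (45.7%, against 14.6% of all protein-coding genes). That window lost Hnrnpf, Prpf39, Prpf4b, Snrpa1, Snrpb2, Srsf4, Srsf5, Srsf6, Srsf10 and Tra2b. With 500 bp either side, 37 were bound (52.9%, against 17.7% of all protein-coding genes). With 1 start site per gene 38 were bound (54.3%, against 17.4%), without Hnrnpf, Hnrnpl, Snrpa1 and Snrpc. Snrpa1 has 1 start site in the basic transcripts, at 66060338, so its loss means that this setting placed the start elsewhere. A limit of 5 on the fold enrichment left 24 of the 70 genes with a median of 6.03, and 2445 of all protein-coding genes, as a stricter limit must leave fewer. With only the gene nearest to each summit, 36 of the 70 were bound (51.4%, against 15.7% of all protein-coding genes). For the motif at the summit, the number of genes was 3 within 50 bp, 14 anywhere in the peak, 2 for AAGATGGC, 13 for the core ATGGC and 3 with the limit of 5 on the fold enrichment, each by the construction of the setting. The number of bound genes in the other splicing lists stayed between 46 and 68 of 125 under the 10 alternatives run. The lowest share, 36.8%, came with the limit of 5 (against 11.1% of all protein-coding genes). The highest, 54.4%, came with 2000 bp either side (against 19.3%). No paired analysis was possible because a single YY1 library was set against a single background library, so no replicate could be left out either. Depth limits the list to sites with at least 8 fragments at the summit, and weaker sites were not detectable.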
